A study of Mus musculus with 5 samples.

Results

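The 10 genes described here encode the parts of the pre-B receptor and the proteins that first carry its signal. They are the surrogate light chain genes Igll1, Vpreb1 and Vpreb2 with the related Vpreb3, the signalling chain genes Cd79a and Cd79b, the kinase genes Blk, Syk and Btk, and the adaptor gene Blnk. They were chosen by name, with earlier results of these data known, and the symbols were matched to the Ensembl identifiers of the count table. All 10 were found among 55487 identifiers, and all 10 were among the 14423 genes with enough counts to be tested. RNA was sequenced in bulk from common lymphoid progenitors (CLPs), sorted from mouse bone marrow as cells without lineage markers and with CD127 and Flt3 on their surface. The 3 SF1 libraries came from mice carrying SclCre, a recombinase under control of the Scl gene of blood stem and progenitor cells, and JAK2-V617F, an active form of the cytokine receptor kinase JAK2. The 2 WT libraries came from wild-type mice, and both groups were harvested 16 weeks after tamoxifen. Age, sex, the use of pools and the origin of each library from a separate animal are not given in the labels, so p-values measure only the spread between these libraries.

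A precursor B cell that has made an immunoglobulin heavy chain displays it with the surrogate light chain, which consists of a VpreB protein (Vpreb1 or Vpreb2) and lambda5 (Igll1). The complex reaches the surface with the CD79A and CD79B chains, whose cytoplasmic tails are phosphorylated by Src family kinases such as BLK. SYK then binds the tails and phosphorylates the adaptor BLNK, on which BTK and phospholipase C gamma 2 are assembled. Transcription of the receptor genes starts early in the B lineage under the E protein E2A (Tcf3) and EBF1, and PAX5 joins them at commitment.

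Total counts were between 8894288 and 20424296 per library, with 20600 to 22749 genes detected at 1 count or more. The progenitor markers Il7r, which encodes CD127, and Flt3 were detected in all libraries, at 331 to 465 and 1510 to 1700 CPM (counts scaled to a common library total by edgeR's TMM factors). Il7r was at 465, 421 and 431 CPM in SF1 and at 331 and 371 CPM in WT. It passed as higher by edgeR (adjusted p = 0.0318), and Flt3 did not pass (0.233). The Il7r call was lost when any SF1 library or WT replicate 1 was left out, and with GC and length offsets (0.148). Jak2, whose counts do not identify the mutant form, averaged 66.4 ± 2.66 CPM (SD, n = 3) over the SF1 libraries. It was at 58.4 CPM in WT replicate 1 and 35.4 CPM in WT replicate 2. Its log2 fold change of 0.48 did not pass the test (adjusted p = 0.104). The value was 0.91 without WT replicate 1. With no filter on low counts it was 0.46 and passed in edgeR (adjusted p = 0.0037). Libraries of the same group differed by more than random counting alone would give, at a chi-square per degree of freedom of 6.38 to 8.81. This does not show that they came from separate animals or RNA. All fold changes are SF1 over WT with their standard error (SE), and adjusted p-values are from the quasi-likelihood test of edgeR, with the Benjamini-Hochberg method applied over all 14423 genes. In bulk RNA, fewer cells of a type and less RNA per cell cannot be told apart.

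Vpreb1 and Vpreb2 lie on chromosome 16 and are near-identical copies, which bears on how far their separate counts can be trusted. Their coding sequences have 429 bases each and differ at 9 positions, so 97.9% of bases are identical. Coding bases 1 to 150 from the GENCODE M21 transcripts are shown 5′ to 3′ with the 3 differing bases of this stretch in capitals.
Vpreb1: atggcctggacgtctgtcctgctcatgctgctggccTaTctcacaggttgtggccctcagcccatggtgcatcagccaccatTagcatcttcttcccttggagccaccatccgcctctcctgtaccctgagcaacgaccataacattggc
Vpreb2: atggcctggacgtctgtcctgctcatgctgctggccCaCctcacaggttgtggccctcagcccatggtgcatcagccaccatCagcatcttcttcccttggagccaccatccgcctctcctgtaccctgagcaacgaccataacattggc
Of all 50-base words in the Vpreb2 transcripts, 32.8% also occur in Vpreb1, and 18.8% of those in Vpreb1 occur in Vpreb2. With 100-base words the shares were 14.7% and 7.75%. Reads from these stretches could be split between both genes or dropped, and neither the labels nor the processing notes give the setting used in counting. In Cd79a, 8.31% of 50-base words occur in the pseudogene Gm32220, which had at most 1 count in any library. In Blnk the share was 0.451%, and the other 6 genes of the set shared no 50-base word with another gene.

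The stretch before the RefSeq start of these genes is shown because E2A and EBF1 act on the receptor genes, as described above. Whether a match bears on the change of any gene was not tested. RefSeq windows on GRCm38.p6 were found for 8 of the 10 genes, and the 250 bases before the RefSeq start were searched on both strands. The E-box CAGGTG, a sequence bound by E proteins, occurred in 6 of the 8 genes, namely Igll1, Vpreb1, Vpreb2, Cd79a, Syk and Blnk. It occurred in 17.2% of all 32851 windows of the same length. In the windows printed here the capitals mark the E-box (CAGGTG, or CACCTG on the other strand), and in Igll1 also a match to the EBF core CCCNNGGG.
Igll1, chr16:16863986-16864235, minus strand: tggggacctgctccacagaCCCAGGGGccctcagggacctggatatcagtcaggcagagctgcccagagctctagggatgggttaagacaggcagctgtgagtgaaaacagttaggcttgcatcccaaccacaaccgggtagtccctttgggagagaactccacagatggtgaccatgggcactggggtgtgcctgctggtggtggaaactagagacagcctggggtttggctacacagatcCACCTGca
Cd79a, chr7:24897247-24897380, plus strand: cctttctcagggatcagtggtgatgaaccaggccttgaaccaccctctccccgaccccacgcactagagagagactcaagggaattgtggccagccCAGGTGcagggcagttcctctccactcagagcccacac
The same E-box stood in almost the same 30 bases before the RefSeq start of both VpreB genes, which differed at 1 of 30 positions.
Vpreb1, chr16:16869326-16869355, minus strand: atgacgttccagCAGGTGcttcctcccaga
Vpreb2, chr16:17980321-17980350, plus strand: atgactttccagCAGGTGcttcctcccaga
The 2 windows, 300 bases long with the 50 bases after the start, were shifted by 144 bases against each other. Over the 156 bases they share, 153 (98.1%) were identical. The E-boxes of Vpreb1 and Vpreb2 thus lie in 1 near-identical stretch that was counted for 2 of the 6 genes.

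Positions were counted from the RefSeq start of each window, with -1 the base before it. Only in Igll1 does this start match the GENCODE gene coordinates given below. The windows of Vpreb1, Vpreb3, Syk, Btk and Blnk lie inside the GENCODE gene, and those of Vpreb2 and Cd79a partly do. All bases of the Blnk window and of the first Syk window are in GENCODE exons. The E-box began at position -8 in Igll1, -88 in Vpreb1, -232 in Vpreb2, -154 in Cd79a and -160 in Blnk. Syk has 2 windows, with an E-box at -200 and -144 from the respective start. The EBF core CCCNNGGG was found in 1 of the 8 genes, Igll1, and in 11.8% of all windows. A longer EBF sequence, which extends that core by 1 base on each side, was found in 0 of the 8 and in 0.779% of all windows. The Ikaros sequence TGGGAA was found in Vpreb2 and Btk, and in 21.6% of all windows. Vpreb3 had no match to these 4 sequences. Its window and that of Blnk hold the octamer ATTTGCAT, a sequence bound by OCT factors, which occurred in 1.6% of all windows and was searched after the sequences had been seen. The octamer is in capitals.
Vpreb3, chr10:75948050-75948299, plus strand: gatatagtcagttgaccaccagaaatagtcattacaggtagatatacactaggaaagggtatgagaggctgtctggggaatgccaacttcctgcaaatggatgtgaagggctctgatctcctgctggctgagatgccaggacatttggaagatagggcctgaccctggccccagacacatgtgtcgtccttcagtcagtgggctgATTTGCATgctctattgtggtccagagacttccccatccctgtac
Blnk, chr19:40994333-40994362, minus strand: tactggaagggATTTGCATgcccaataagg
Only exact matches were counted, so a site that differs from the searched sequence by 1 base would be missed, also in Cd79a. A match describes letters only, and binding was not measured.

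RNA of 5 of the 10 genes was lower in SF1 at an adjusted p below 0.05, and all 5 encode receptor chains or Vpreb3. They were Vpreb3, Cd79a, Igll1, Vpreb1 and Cd79b, by 2.17, 1.96, 1.83, 1.62 and 1.41 times. Over all genes tested, 9.74% passed as lower. None of the 10 genes passed as higher, where 6.77% of all genes did. The number higher was also 0 at an unadjusted p below 0.05 in edgeR's quasi-likelihood test, with DESeq2 and with limma's voom fit. Of all 14423 genes, 1019 passed as higher with DESeq2 and 1021 with voom. At such shares, 0 of 10 does not set these genes apart. The share at an unadjusted p was not counted. In 8 of the 10 genes every SF1 library lay below both WT libraries, an order that 24.2% of all genes tested showed. None lay above both WT libraries throughout, where 24.8% of all genes did. The median log2 fold change was -0.53 over the 10 genes, -0.78 over the 6 receptor chain genes, Vpreb3 included, and -0.20 over the kinase and adaptor genes, beside 0.02 over all genes tested. The difference between these groups of genes was not tested. Because the 10 genes were chosen with earlier results of these data known, the comparison with all genes is a description.

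**Figure D1:**
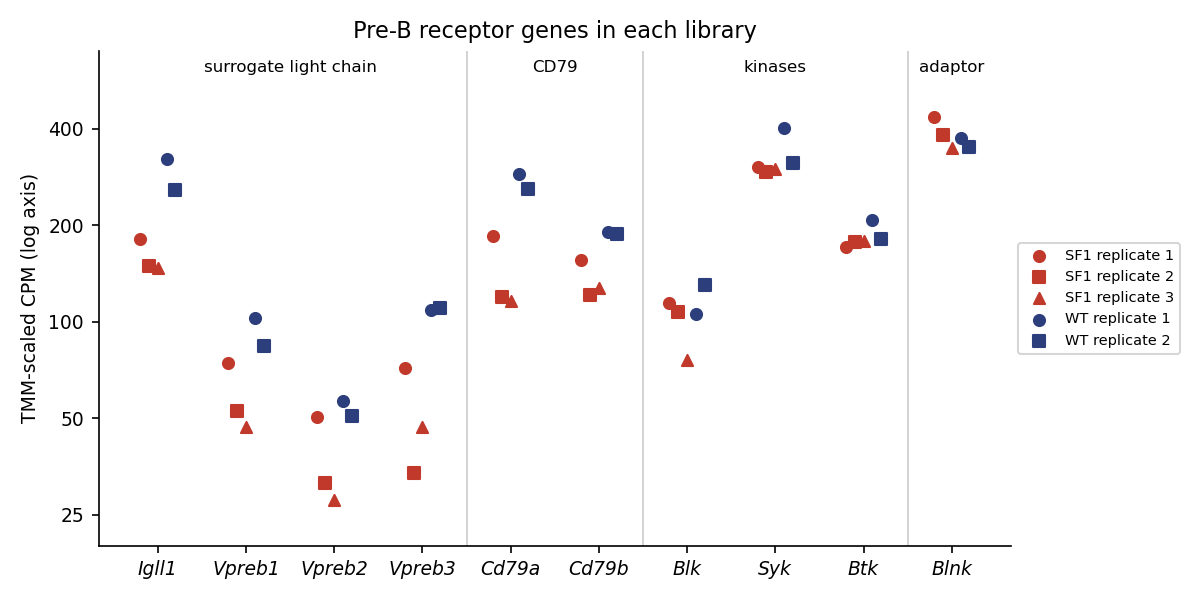
Scaled CPM of each of the 10 genes in every library, on a log axis, with points for the 3 SF1 and 2 WT libraries. All SF1 points lie below both WT points in 8 genes, and the ranges overlap in Blk and Blnk.

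**Figure D2:**
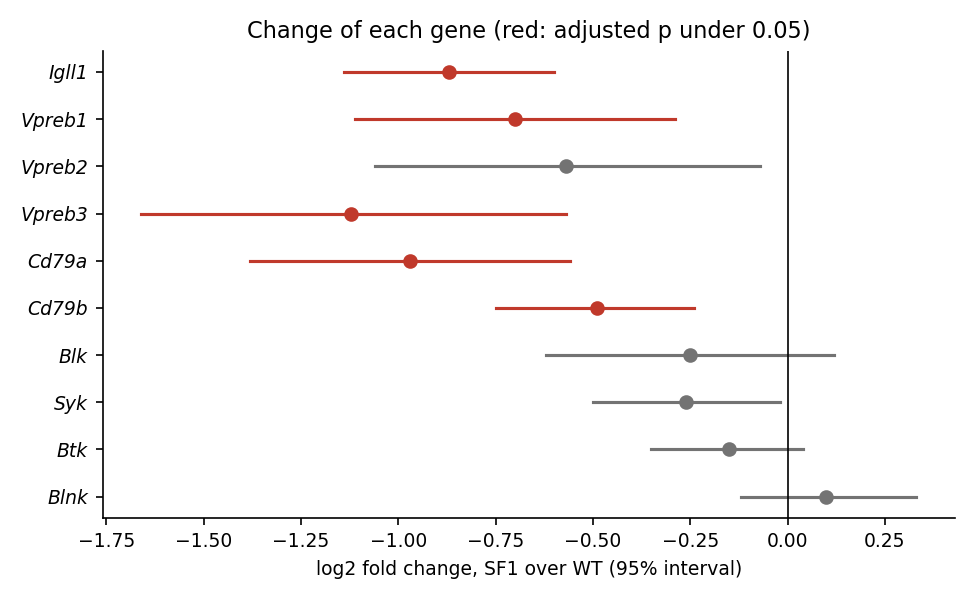
Log2 fold change of SF1 over WT for the 10 genes with 95% confidence intervals from edgeR. The values run from -1.12 in Vpreb3 to 0.10 in Blnk, and 5 genes have an adjusted p below 0.05.

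Among the surrogate light chain genes, Igll1 (ENSMUSG00000075370, GRCm38 chromosome 16, 16860671 to 16863985, minus strand) encodes lambda5. It was at 181, 149 and 147 CPM in SF1 replicates 1, 2 and 3 and at 321 and 258 CPM in WT replicates 1 and 2. The highest SF1 library was thus below the lowest WT library. The means were 159 ± 18.9 CPM (SD, n = 3) and 289 ± 44.8 CPM (SD, n = 2), a log2 fold change of -0.87 (SE 0.12, 95% interval -1.14 to -0.60) with an adjusted p of 0.00241. Igll1 passed the threshold in all 14 alternative analyses run for it.

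Vpreb1 (ENSMUSG00000059305, chromosome 16, 16868403 to 16870843, minus strand), which pairs with lambda5, was at 74.2, 52.5 and 46.9 CPM in SF1 and at 103 and 83.9 CPM in WT. SF1 replicate 1 was the SF1 library closest to WT. The log2 fold change was -0.70 (SE 0.18, 95% interval -1.11 to -0.29), with an adjusted p of 0.0311. Its copy Vpreb2 (ENSMUSG00000059280, chromosome 16, 17980428 to 17981273, plus strand) was at 50.4, 31.4 and 27.7 CPM in SF1 and at 56.7 and 50.7 CPM in WT. Here SF1 replicate 1 was almost at the level of WT replicate 2, while the other SF1 libraries were lower. Its log2 fold change was -0.57 (SE 0.22, 95% interval -1.06 to -0.07) and did not pass, with an adjusted p of 0.115. It was -0.86 without SF1 replicate 1, the SF1 library nearest WT, with an adjusted p of 0.00529 by edgeR. Over its 15 alternatives the log2 fold change of Vpreb2 ran from -0.86 to -0.40. With the counts of both copies summed, which removes the question of how shared reads were split between them, the levels were 125, 83.9 and 74.5 CPM in SF1 and 160 and 135 CPM in WT. The summed log2 fold change was -0.65 (SE 0.19), with an adjusted p of 0.0475. The ratio of Vpreb1 to Vpreb2 counts, computed after the values had been seen, was 1.47, 1.68 and 1.69 in SF1 and 1.82 and 1.66 in WT (two-sided exact permutation p = 0.6). Vpreb1 also overlaps Top3b on the opposite strand, which had between 1411 and 3539 counts, and the library kit does not mark strand.

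Vpreb3 (ENSMUSG00000000903, chromosome 10, 75943057 to 75949657, plus strand) encodes a VpreB-related protein that resides in the endoplasmic reticulum of B-lineage cells. It was at 71.7, 33.7 and 46.8 CPM in SF1 and at 109 and 110 CPM in WT. Both WT libraries were nearly equal, while the highest SF1 library was 2.13 times the lowest, the widest spread within SF1 among the 10 genes. Even so the groups did not overlap. The log2 fold change was -1.12 (SE 0.24, 95% interval -1.66 to -0.57), with an adjusted p of 0.0148.

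Cd79a (ENSMUSG00000003379, chromosome 7, 24897381 to 24902197, plus strand) was at 185, 119 and 116 CPM in SF1 and at 288 and 259 CPM in WT. SF1 replicate 1 was again the highest SF1 library and stayed below both WT libraries. The means were 140 ± 39 CPM (SD, n = 3) and 273 ± 20.7 CPM (SD, n = 2), with a log2 fold change of -0.97 (SE 0.18, 95% interval -1.38 to -0.56) and an adjusted p of 0.00799. Cd79b (ENSMUSG00000040592, chromosome 11, 106311341 to 106314762, minus strand), its partner in the disulfide-linked dimer, was at 156, 121 and 127 CPM in SF1 and at 191 and 188 CPM in WT. It fell less, with a log2 fold change of -0.49 (SE 0.11, 95% interval -0.75 to -0.24) and an adjusted p of 0.0182. Cd79a passed in all 14 alternatives, and Cd79b in 11 of 14.

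Ratios between partners of the receptor were compared as counts, not per length, so that only their change between groups can be read. Cd79a counts were 1.18, 0.988 and 0.908 times those of Cd79b in SF1 and 1.51 and 1.38 times in WT. Every SF1 library was lower than both WT libraries, with a mean log2 difference of -0.50. Its two-sided exact permutation p was 0.2, and the smallest that 3 against 2 libraries can give is 0.1, so no such test can reach 0.05 here. Igll1 counts were 1.45, 1.77 and 1.97 times the summed counts of Vpreb1 and Vpreb2 in SF1 and 2.01 and 1.91 times in WT. The ranges overlapped, with a mean log2 difference of -0.19 (exact permutation p = 0.4). Among these 4 ratios, that of Syk to its T cell relative Zap70 had a mean log2 difference of -0.29 (exact permutation p = 0.4) and rests on 4.69 to 6.92 CPM of Zap70.

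None of the 3 kinase genes passed the test in either direction. Blk (ENSMUSG00000014453, chromosome 14, 63372836 to 63417037, minus strand), a Src family kinase of the B lineage, was at 114, 107 and 76.1 CPM in SF1 and at 106 and 130 CPM in WT. The ranges overlapped, and the log2 fold change of -0.25 (SE 0.16, 95% interval -0.62 to 0.12) did not pass (adjusted p = 0.329). Syk (ENSMUSG00000021457, chromosome 13, 52583173 to 52648792, plus strand) was at 303, 292 and 300 CPM in SF1 and at 402 and 312 CPM in WT. SF1 libraries were within 1.04 times of each other and below both WT libraries, but WT replicate 2 was close to them. The log2 fold change of -0.26 (SE 0.10, 95% interval -0.50 to -0.02) did not pass (adjusted p = 0.124). It was -0.07 without WT replicate 1 (adjusted p = 0.744) and -0.44 without WT replicate 2 (adjusted p = 0.0154), so the value depends on which WT library is kept. Btk (ENSMUSG00000031264, chromosome X, 134542336 to 134583570, minus strand), the Tec family kinase downstream of SYK, was at 171, 177 and 178 CPM in SF1 and at 208 and 181 CPM in WT. It was slightly lower in SF1 in all 3 libraries, and the log2 fold change of -0.15 (SE 0.09, 95% interval -0.35 to 0.04) did not pass (adjusted p = 0.256).

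The adaptor gene Blnk (ENSMUSG00000061132, chromosome 19, 40928927 to 40994535, minus strand) was the only member with a positive fold change. It was at 436, 381 and 349 CPM in SF1 and at 374 and 350 CPM in WT. The ranges overlapped, and the log2 fold change of 0.10 (SE 0.10, 95% interval -0.12 to 0.33) did not pass (adjusted p = 0.528). The interval leaves room for a rise of 0.33 or a fall of 0.12 on the log2 scale, which is less than the fitted fall of each of the 6 receptor chain genes.

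The SF1 libraries were not alike in these genes. SF1 replicate 1 was the highest SF1 library in 9 of the 10 genes and in all 6 receptor chain genes, and SF1 replicate 3 was the lowest in 6 of the 10. This order was not counted over all genes tested, so it is not shown to be particular to these genes. In percent of the WT mean, SF1 replicate 1 stood at 62.5 for Igll1, 79.4 for Vpreb1, 93.9 for Vpreb2, 65.5 for Vpreb3, 67.6 for Cd79a and 82.3 for Cd79b. SF1 replicate 3 stood at 50.8, 50.2, 51.6, 42.7, 42.4 and 67.0 for the same genes. Summed over the 4 surrogate light chain genes, the level was 377, 267 and 268 CPM in SF1 and 590 and 502 CPM in WT. The 2 CD79 genes together were at 341, 240 and 243 CPM in SF1 and at 479 and 447 CPM in WT. The kinase genes and Blnk together were at 1020, 957 and 903 CPM in SF1 and at 1090 and 973 CPM in WT, with overlapping ranges.

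Levels of different genes were compared as CPM per kilobase of exon. The length counts every annotated exon base of a gene once, from 759 bases in Vpreb2 to 9362 in Syk. Annotated exons that these cells do not use would set a gene too low, which was not tested. In WT the order was Cd79a (188), Igll1 (134), Cd79b (132), Vpreb3 (128), Vpreb1 (78), Vpreb2 (70.7), Btk (61.8), Blnk (60.4), Blk (43.7) and Syk (38.2). The WT range of Igll1 (119 to 148) took in those of Cd79b and Vpreb3, which did not overlap with each other (132 and 133 against 127 and 128). The WT ranges of Vpreb1 and Vpreb2 overlapped, as did those of Btk and Blnk, and of Blk and Syk. In SF1 the order was Cd79a (96 ± 26.8), Cd79b (94.1 ± 13.2), Igll1 (73.3 ± 8.73), Blnk (64.9 ± 7.37), Vpreb3 (59.1 ± 22.5), Btk (55.6 ± 1.18), Vpreb1 (48.3 ± 12), Vpreb2 (48.1 ± 16.1), Blk (36.7 ± 7.46) and Syk (31.9 ± 0.605), each as mean and SD of 3 libraries. Each pair of neighbours in the SF1 order overlapped except Cd79b and Igll1. Vpreb3, above both Btk and Blnk in WT, was between them in SF1, with overlapping ranges.

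**Figure D3:**
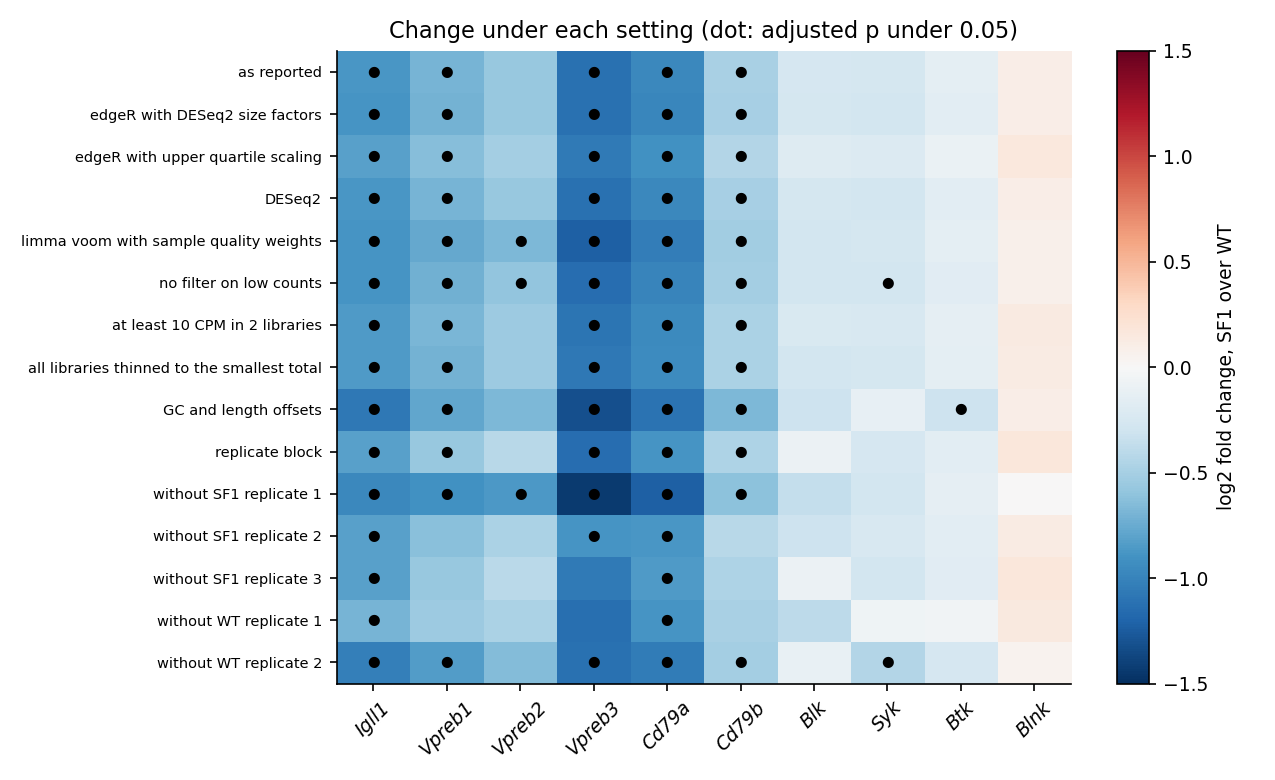
Log2 fold change of each of the 10 genes under the reported analysis and its alternatives, with values past the threshold marked apart. Igll1 ranges from -1.07 to -0.70 and Cd79a from -1.22 to -0.85, past the threshold throughout, while Blnk ranges from 0.01 to 0.17 and never passes.

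The calls of 3 receptor genes were lost with fewer libraries, while their fold changes stayed negative. Vpreb1 lost its call without SF1 replicate 2 (-0.63 on the log2 scale, adjusted p = 0.108), SF1 replicate 3 (-0.57, 0.0914) or WT replicate 1 (-0.54, 0.205), all by edgeR. For Vpreb3 this was so without SF1 replicate 3 (-1.06, 0.0606) or WT replicate 1 (-1.13, 0.0624). For Cd79b the libraries were SF1 replicate 2 (-0.42, 0.0666), SF1 replicate 3 (-0.46, 0.0696) and WT replicate 1 (-0.49, 0.0879). The number of the 10 genes that passed as lower was 3 in the fit that left out SF1 replicate 2, and 2 in the fits that left out SF1 replicate 3 or WT replicate 1, and Igll1 and Cd79a passed in each of these fits.

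The genes most like Igll1 and Cd79a across the 5 libraries were found by the root mean square difference of centred log2 CPM among 7943 genes with a mean of at least 20 CPM. For Igll1 they were Plekha7 (0.029), Ddx58 (0.0329) and Ccar2 (0.0463). Ddx58, which encodes the RNA sensor RIG-I, was at 48.2, 40.9 and 39.7 CPM in SF1 and at 82.6 and 67.9 CPM in WT. For Cd79a they were Tab1 (0.0707), Rubcn (0.0739) and St3gal6 (0.0842). Tab1, which encodes a subunit of the TAK1 kinase complex, was at 34.5, 25.7 and 22.5 CPM in SF1 and at 56 and 50.7 CPM in WT. These 6 genes were chosen for likeness over 5 libraries, so their pattern is a description.

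The receptor's other components and the pathway around it were followed in 6 lists of 106 genes, of which 102 were tested. In them 20 genes passed as lower, 14 as higher and 68 did not pass, and over all genes tested 16.5% passed in either direction. Of the 10 tested receptor partners and coreceptors, 2 passed as lower and 3 as higher, with a median log2 fold change of 0.28. Ighm, the gene of the mu heavy chain that the surrogate light chain pairs with, was at 2880, 2700 and 2580 CPM in SF1 and at 2620 and 2470 CPM in WT and did not pass (adjusted p = 0.374). The tetraspanin gene Cd81 fell by 0.45 on the log2 scale (SE 0.08, adjusted p = 0.00759). Ptprc, which encodes the phosphatase CD45, rose by 0.40 (SE 0.09, adjusted p = 0.0169), and the inhibitory receptor genes Pirb and Cd5 rose by 2.55 (SE 0.56) and 1.15 (SE 0.26), with Pirb at no more than 16.9 CPM. Cd81 passed whichever library was left out, while the number higher was 0 without SF1 replicate 2 and 1 without SF1 replicate 3 or WT replicate 1. Ptprc did not pass with the replicate block (adjusted p = 0.0533), nor Pirb with voom (0.0512).

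Of 12 tested kinases of the families of Blk, Syk and Btk, regulators included, 2 passed as higher and 0 as lower, with a median log2 fold change of -0.01. Over all genes tested 6.77% passed as higher and 9.74% as lower. The number lower was also 0 by DESeq2, by voom and at an unadjusted p below 0.05 in edgeR. Of all 14423 genes, 1559 passed as lower by DESeq2 and 1578 by voom. At such shares, 0 of 12 does not set these kinases apart. Lyn, the main Src family kinase of B cells, was at 153, 174 and 160 CPM in SF1 and at 117 and 138 CPM in WT, and passed as higher (0.35 on the log2 scale, SE 0.10, adjusted p = 0.0453). Fgr, a Src family kinase of myeloid cells, was at 16.1, 22.2 and 34 CPM in SF1 and at 8.55 and 9.22 CPM in WT (1.45, SE 0.29, adjusted p = 0.0115). Lyn did not pass when SF1 replicate 2 or 3 or WT replicate 1 was left out, with GC and length offsets (adjusted p = 0.111) or with the replicate block (0.0556). Fgr did not pass with WT replicate 1 left out (0.0787). Neutrophil and monocyte markers moved with Fgr and Pirb: 12 of 13 passed as higher, and their summed level was 2450, 3080 and 6260 CPM in SF1 and 1100 and 1420 CPM in WT. Their part in these values was not tested.

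Of 23 adaptor genes, 5 passed as lower and 1 as higher, with a median log2 fold change of -0.18. Dok2 and Dok3, adaptors that restrain signalling, fell by 0.61 (SE 0.09, adjusted p = 0.00331) and 0.80 (SE 0.14, adjusted p = 0.00579). Crk, Shc1 and Gab1 were the other lower genes, at -0.34, -0.42 and -0.69. Crk and Gab1 did not pass with the replicate block (adjusted p = 0.0738 and 0.0546), nor Shc1 with GC and length offsets (0.0703). Lat2, a membrane adaptor related to Lat, rose by 0.39 (SE 0.09, adjusted p = 0.0199). The number lower was 2 with SF1 replicate 2 left out, 3 with SF1 replicate 3 left out and 1 with WT replicate 1 left out, and 3 with the replicate block. Lat2 did not pass without SF1 replicate 3 or either WT library, with GC and length offsets (adjusted p = 0.0516) or with the block (0.0651).

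Of 26 downstream effectors, 6 passed as lower and 3 as higher, with a median log2 fold change of -0.04. Plcg2, the phospholipase that BLNK and BTK activate, was at 509, 451 and 409 CPM in SF1 and at 727 and 644 CPM in WT, and passed as lower (-0.59 on the log2 scale, SE 0.10, adjusted p = 0.00587). Pik3cd, the PI3 kinase catalytic subunit of leukocytes, was at 256, 178 and 207 CPM in SF1 and at 562 and 446 CPM in WT (-1.24, SE 0.15, adjusted p = 0.00127). Both genes were lower in all SF1 libraries than in either WT library. In the other direction, the kinase gene Akt1 was at 225, 281 and 275 CPM in SF1 and at 83.4 and 50.2 CPM in WT (1.94, SE 0.20, adjusted p = 0.000648). The Ras exchange factor genes Rasgrp3 and Sos1 rose by 1.46 (SE 0.17) and 1.01 (SE 0.12). The number lower was 2 without WT replicate 1, and Plcg2, Pik3cd, Akt1, Rasgrp3 and Sos1 passed whichever library was left out. Of 11 phosphatases and ubiquitin ligases that limit the signal, 2 passed as lower, among them Inpp5d at -0.63, and 2 as higher (Cbl at 0.38 and Cblb at 0.34). Inpp5d encodes SHIP1, a lipid phosphatase. Leaving out SF1 replicate 2, SF1 replicate 3 or either WT library left 1 lower gene in this list, Inpp5d. Cbl did not pass when SF1 replicate 2 or 3 or WT replicate 2 was left out, or with the replicate block (adjusted p = 0.0973). Cblb did not pass whichever library was left out (0.0571 to 0.167), with thinning (0.0795) or with the block (0.116). The block thus left 1 lower and 0 higher genes in this list.

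**Figure D4:**
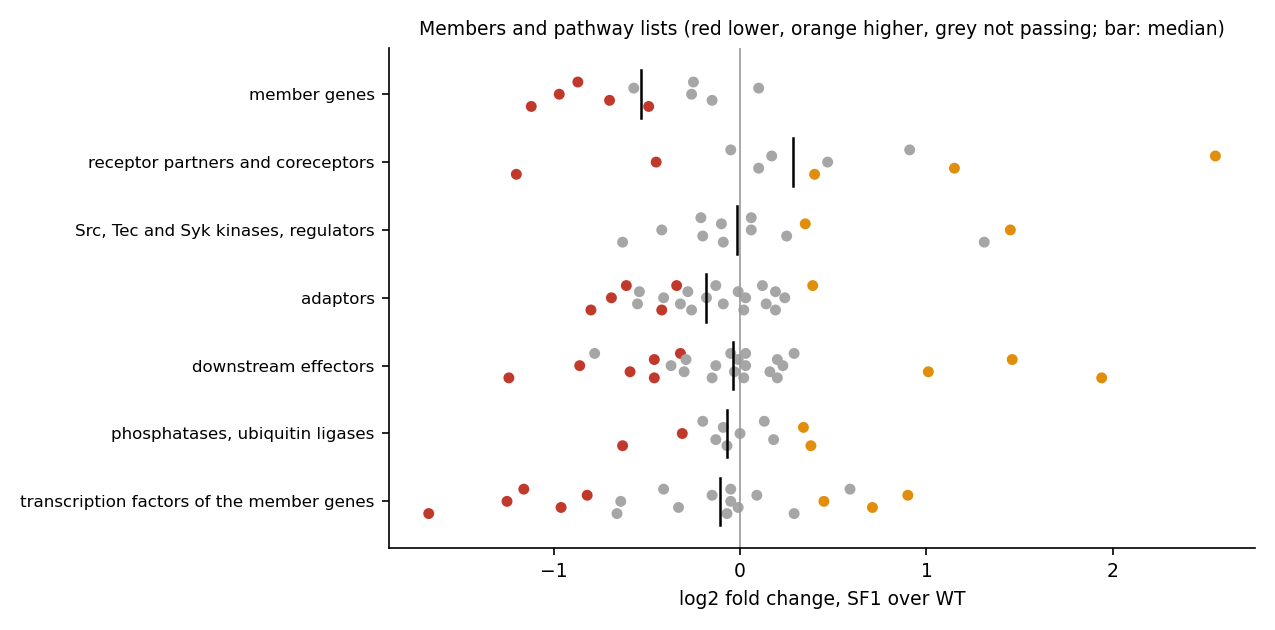
Log2 fold change of SF1 over WT for each tested gene of the 6 pathway lists beside the 10 genes of the receptor set, 1 point per gene, with genes past the threshold marked. The median is -0.53 for the receptor set and between -0.18 and 0.28 for the lists.

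Of 20 tested transcription factors known to act on these genes or their lineage, 5 passed as lower and 3 as higher, with a median log2 fold change of -0.11. Tcf3, which encodes the E proteins E12 and E47, was at 202, 175 and 200 CPM in SF1 and at 478 and 435 CPM in WT. The SF1 libraries were close together and all below both WT libraries, at -1.25 on the log2 scale (SE 0.09, adjusted p = 0.000161). Of the other E protein genes, Tcf12 was at -0.01 (adjusted p = 0.952), and Tcf4 rose by 0.45 (SE 0.09, adjusted p = 0.0096). Id2, which encodes an inhibitor of E proteins, rose by 0.71 (SE 0.14, adjusted p = 0.0111), while Id3 was at -0.33 and did not pass. Pax5 was at 19.9, 15.5 and 13.7 CPM in SF1 and at 35.2 and 37.6 CPM in WT (-1.16, SE 0.16, adjusted p = 0.00259). Pou2af1, which encodes the coactivator that OCT factors recruit to the octamer, was at 51.2, 26.4 and 33 CPM in SF1 and at 128 and 105 CPM in WT (-1.67, SE 0.23, adjusted p = 0.00206). Foxo1 and Lef1 fell by 0.82 (SE 0.18) and 0.96 (SE 0.18), and Irf8 rose by 0.90 (SE 0.11). The number higher in this list was 1, Irf8, without WT replicate 1, and Foxo1 did not pass when SF1 replicate 2 or 3 or WT replicate 1 was left out.

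Ebf1 was at 198, 92.4 and 103 CPM in SF1 and at 213 and 201 CPM in WT. SF1 replicate 1 was almost at the WT level and the other 2 SF1 libraries were at 44.6 and 49.8% of the WT mean. The log2 fold change of -0.66 (SE 0.27, 95% interval -1.27 to -0.06) did not pass (adjusted p = 0.127). Without SF1 replicate 1, the SF1 library nearest WT, it was -1.08 with an adjusted p of 0.00102 by edgeR. SF1 replicate 1 was also the highest SF1 library in each of the 6 receptor chain genes and in Tcf3, Pax5, Foxo1, Pou2af1 and Lef1. This also held in factors that did not pass, namely Tcf12, Ikzf1, Irf4, Ets1, Sox4, Bach2, Myb and Id3. It did not hold in Tcf4, Id2, Irf8, Spi1, Spib and Runx1. The order is thus not particular to the factors that passed as lower. In Tcf3 the SF1 libraries were close together, at 44.2, 38.3 and 43.8% of the WT mean. Whether the receptor genes follow any of these factors was not tested. With 5 libraries no correlation between these genes was computed.

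**Figure D5:**
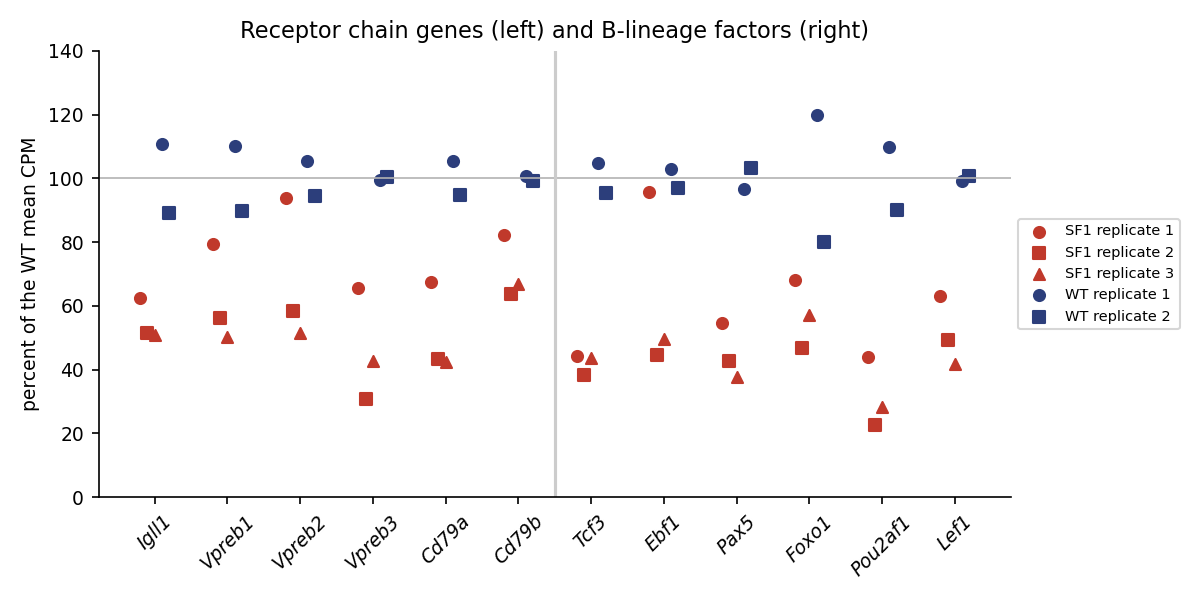
Level of the 6 receptor chain genes and of 6 transcription factors in each library, in percent of the WT mean of the gene. The factors are Ebf1 and those of the list that passed as lower. In SF1 replicate 1 Ebf1 is at 95.7%, Vpreb2 at 93.9%, Tcf3 at 44.2% and Pou2af1 at 43.9%. The other receptor chain genes are at 62.5 to 82.3% in that library.

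Markers of B-lineage stages and of other cells moved between the groups as well. Of 8 tested pro-B and pre-B cell markers, which include Pax5 and Lef1 already described, 5 passed as lower. Their summed level was 553, 398 and 402 CPM in SF1 and 793 and 670 CPM in WT, with SF1 replicate 1 again the highest SF1 library. Rag1, a subunit of the recombinase, was at 113, 64.5 and 63.9 CPM in SF1 and at 182 and 138 CPM in WT, and did not pass when SF1 replicate 2 or 3 or WT replicate 1 was left out, or with DESeq2 on all libraries (adjusted p = 0.0533). Il2ra, a marker of later pre-B cells, did not exceed 1.1 CPM. Of the 7 markers of the sorted progenitor 4 passed as higher and 1 as lower, with sums of 8690 to 8970 CPM in SF1 and 8000 to 8110 CPM in WT. Of 4 tested mature B cell markers 1 passed as lower, Cd37, at 298, 261 and 264 CPM in SF1 and 374 and 375 CPM in WT, and the sums of all 7 were 846 to 931 CPM in SF1 and 937 and 914 CPM in WT. Within this list H2-Ob was at 492 to 577 CPM and Ighd at 41.9 to 51.6 CPM, while Ms4a1 and Cr2 did not exceed 0.438 and 0.701 CPM. Of 8 tested plasmacytoid dendritic cell markers 6 passed as higher (sums 834 to 1090 CPM in SF1, 478 and 555 CPM in WT), and of 6 tested plasma cell markers 2 did (641 to 819 CPM, 363 and 399 CPM in WT). These were Igha, with means of 226 CPM in SF1 and 0.707 in WT, and Jchain, with 61.8 and 1.13. Sdc1 and Xbp1 did not pass, at WT means of 154 and 223 CPM. Mzb1, Prdm1 and Tnfrsf17 did not exceed 2.16, 1.47 and 0.46 CPM. Of 10 macrophage markers 6 passed as lower (10.3 to 23.1 CPM, 36 and 43 CPM in WT), with Cd5l at 0 in all SF1 libraries, and of 8 tested erythroid markers 7 did (75.2 to 98.8 CPM, 208 and 180 CPM in WT), with Hba-a2 at 0 in SF1. Conventional dendritic, megakaryocyte, T cell and NK cell lists had 1 gene each that passed as higher, and the T cell marker Bcl11b was at 0 in all 5 libraries. The part of these cells in the receptor gene values was not tested.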

How the data were processed

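Raw counts per gene of 5 libraries were deposited by the authors in 1 table, with no normalization. Per the labels' protocols, only RNA with an integrity number above 7 was used, amplified by SMART-Seq chemistry in its v2 or v4 form and made into Nextera XT libraries, with no molecular identifiers and no strand mark. Which library used which version is not stated. Per the submitters' processing notes, HISAT2 2.2.1, featureCounts 2.0.1 and GRCm38 were used. The handling of strand and of reads matching several places is not given there.

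Symbols came from GENCODE M21, which matched 55227 identifiers. SF1 was set against WT with edgeR 4.0.16 (R 4.3.3): TMM scaling, filterByExpr (minimum count 10), quasi-likelihood F test, no covariate, threshold 0.05 on the adjusted p. The SE comes from the F statistic. One count was worth 0.0503 to 0.114 CPM. Alternatives were other scalings, DESeq2 1.42.0, limma 3.58.1 voom, other filters, thinning to the smallest total, GC and length offsets (mgcv 1.9.3), a replicate block and leaving out each library. Scripts were tested on simulated data. Figures used matplotlib 3.10.9.

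The 10 genes and all lists were chosen with earlier results of these data known. Named are the 10 genes, up to 4 genes with the smallest p per pathway list, Jak2, Ighm, Il7r, Flt3, Tcf3, Ebf1, Pax5, markers at 0, and the 3 genes most like Igll1 and Cd79a. Other genes were named after their values were seen. Some genes of the lists are not reported here by name. Replicate numbers were not used to pair libraries, because the labels give no pairing. Same-numbered SF1 and WT libraries deviated together by correlations of 0.05 and 0.06. With 2 WT libraries, the correlations of the crossed pairs are fixed as their mirror (-0.05 and -0.06). These values therefore cannot exclude a shared batch.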

Additional observations from a re-analysis of the deposited data

How the results depend on the processing

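The 10 genes had 142 values under the alternatives, and 127 kept their direction and their side of the threshold. 8 lost the call, each without 1 library (Vpreb1, Vpreb3 and Cd79b, as given in the report), 7 gained one, and 0 changed direction. The gains were Vpreb2 with voom (adjusted p = 0.0449), with no filter (0.000288), without SF1 replicate 1 (0.00529) and with both copies summed (0.0475), Syk with no filter (0.0186) and without WT replicate 2 (0.0154), and Btk with GC and length offsets (-0.31, 0.0359). The cause was not tested. Leaving out single libraries gave 2 to 6 of the 10 genes as lower against 5, and 0 higher throughout. It gave 986 genes called over the whole table (without WT replicate 1) to 2170 against 2382, 10 to 22 pathway genes lower against 20, and 6 to 16 higher against 14. In each such fit that leaves 1 WT library, that library is assumed to vary like the SF1 libraries.

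The replicate block, a term for each replicate number, called 1519 genes and left the number of the 10 genes lower at 5. SF1 replicate 3 has no WT library of its number, so with the block it adds nothing to the comparison. A call lost with the block can thus come from lower power, which was not tested. Whether same-numbered libraries share anything beyond the number is not given in the labels. Upper quartile scaling gave 1106 lower and 1293 higher genes where the reported scaling gave 1405 and 977, with the median of all genes at 0.08 and not 0.02, and with the same 5 of the 10 genes lower. With GC and length offsets Ighm, not called in either, was at -0.09 (adjusted p = 0.446) and not 0.10. Tcf12, at -0.01 and not called, was at 0.05 with upper quartile scaling, at 0.04 with the block, at 0.01 with the stricter filter or thinning, and between -0.07 and 0.04 with single libraries left out. Id3, also not called, was between -0.64 and 0.12 in the latter fits, above 0 with WT replicate 1 left out. The ratio of Syk to Zap70 had a log2 difference of 0.01 without WT replicate 1 and -0.58 without WT replicate 2, against -0.29. With 3 against 2 libraries, a gene with a small difference can miss the threshold, so the kinase and adaptor genes are not shown to be equal.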
